A study of Mus musculus with 8 samples.

Results

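The myogenic regulatory factors are the 4 related transcription factors Myod1, Myf5, Myf6 (also called Mrf4) and Myog (myogenin). They were chosen by name, as 4 of 21631 protein-coding genes. For each gene every listed CpG cytosine inside its RefSeq span (build GRCm38.p6) and 30 kb on each side was taken, a reach that includes known upstream enhancers. The windows hold 4127 of the 32984740 listed positions on chromosomes 1 to 19 and X. Of these, 1794 lie around Myod1 at chr7:46346474-46409092 and 1461 around Myog at chr1:134260004-134322548. Myf5 and Myf6 are neighbours whose windows overlap, so they are described as a joint locus at chr10:107452908-107524723 with 872 positions.

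All 4 proteins carry a basic helix-loop-helix domain, pair with E proteins and bind E-boxes in the control regions of muscle genes. Myf5 and Myod1 commit cells to the muscle lineage, Myog drives the differentiation of committed myoblasts, and Myf6 acts early in the embryo and again in the mature fibre. Resting muscle stem cells keep Myog off until they are activated and begin to differentiate. Methylated CpGs around a start site usually go with a silent promoter, whereas active or poised CpG-rich promoters and enhancers are usually low.

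Methylation was read by whole-genome bisulfite sequencing in resting (quiescent) stem cells of skeletal muscle. They came from the limbs of C57BL/6 males and were sorted as CD45-, CD31-, Sca1- and VCAM+. The young group had 4 mice aged 4 months and the old group 4 mice aged 22 months, with 1 library per mouse. Per the labels, 115000000 to 200000000 reads were made per library. For each position the deposited table gives 1 level per age (mu), 1 dispersion per age (phi) and the authors' p-value and false discovery rate (FDR) of old against young. It holds no value per mouse and no read count, so levels stand without an SD and the depth at a position is unknown. Neighbouring positions often share exactly the same level, so the levels are read here as smoothed, which the sources used here do not state. No spread between mice could be computed here, and the tests rest on the authors' p-values.

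Sequences ahead of the start are shown for Myog and Myf5, so that their CpGs can be set beside their values. Each run is the 250 bp before the transcription start from RefSeq, build GRCm38.p6, written 5′ to 3′ on the gene's strand with CpG dinucleotides in capitals. The Myog run lies at chr1:134289754-134290003 on the + strand and the Myf5 run at chr10:107486135-107486384 on the - strand. The Myf5 start used here is chr10:107486134, whereas the RefSeq span of the gene reaches to chr10:107486927. The Myf5 run thus lies inside the span, and all Myf5 distances count from this start.
Myog: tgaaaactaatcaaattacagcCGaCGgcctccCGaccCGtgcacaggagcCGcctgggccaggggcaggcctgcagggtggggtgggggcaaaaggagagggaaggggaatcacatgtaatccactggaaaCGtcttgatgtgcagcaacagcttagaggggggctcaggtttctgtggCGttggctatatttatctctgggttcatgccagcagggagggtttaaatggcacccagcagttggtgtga
Myf5: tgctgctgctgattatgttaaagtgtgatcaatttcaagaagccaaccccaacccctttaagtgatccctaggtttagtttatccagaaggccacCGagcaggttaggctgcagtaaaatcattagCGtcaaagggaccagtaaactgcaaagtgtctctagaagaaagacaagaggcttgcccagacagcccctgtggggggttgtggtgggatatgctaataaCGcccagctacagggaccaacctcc

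The Myog run holds 7 CpGs and the Myf5 run 3, against a median of 6 over 27025 promoters of the same length. An E-box search (CANNTG, the same on both strands) matched the Myog run at 138 and at 12 bases before the start, as CACATG and CAGTTG. At least 2 such matches are present in 31.7% of all promoters, and the Myf5 run had 0. The MEF3 motif TCAGGTTTC, a site of certain homeodomain proteins in muscle promoters, was searched on both strands. It matched the Myog run at 84 bases before the start and is present in 0.403% of all promoters. Between the MEF3 match and the start lies a single CpG, at 70 bases before the start, and it had the highest level of the 7 in both ages.

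The start sites of the 4 genes fell into a pair with low and a pair with higher methylation, in both ages. Within 1 kb on each side of the start, Myod1 stood at 5.66% in the young and 5.51% in the old over 181 positions, and Myf5 at 12.5% and 11.9% over 97 positions. Myog stood at 57.1% and 61.1% over 83 positions, and Myf6 at 60.1% and 61.9% over 58 positions. In this window the order from low to high was Myod1, Myf5, Myog, Myf6 in both ages. With 2000 bp on each side Myog lay above Myf6 in young cells, at percentile 80.4 of all genes against 67.8. Whether neighbours in the order differ beyond the spread between mice could not be tested, since levels per mouse are not in the table. The differences between ages at the starts were small or hung on how positions were averaged. That of Myog was 4.05 points between means and 0.91 between medians over positions, and 3.33 to 5.05 points under the other settings tried. Those of Myod1, Myf5 and Myf6 (-0.146, -0.618 and 1.70 points) changed sign under another average. In these 4 windows 0 positions were called by the authors' FDR under 0.05, against 0.236% of positions over the genome.

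**Figure D1:**
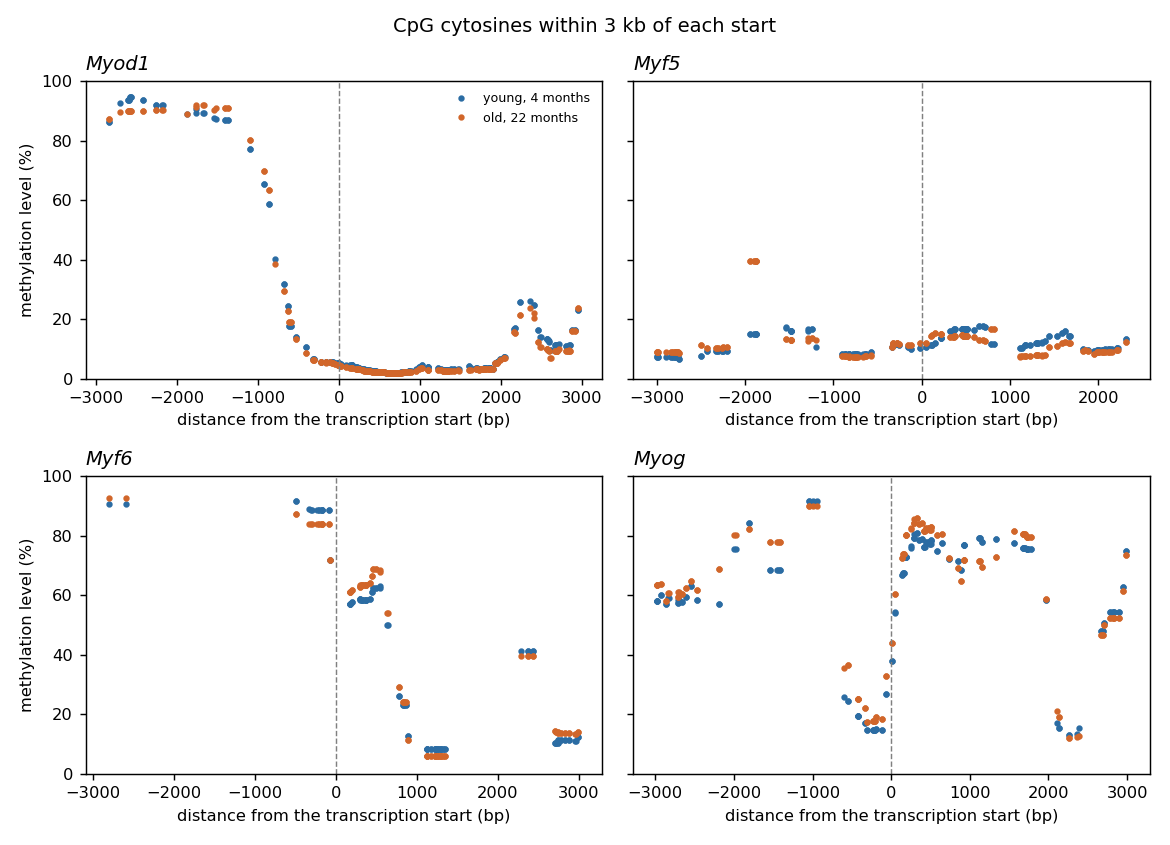
Methylation level of single CpG cytosines (percent, vertical axis) against distance from the transcription start in bp (horizontal axis, dashed line at the start), for young (blue) and old (orange) cells. Myod1 and Myf5 lie low across the start, whereas in Myog the low stretch ends just before the start and in Myf6 it begins inside the gene.

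The 57.1% of Myog is an average over a sharp step at the start. The low part is a stretch of 219 bp, from 0.335 to 0.117 kb before the start, at 15.1% in the young and 18.4% in the old. In the printed sequence, the CpGs at 228, 225, 217 and 212 bases before the start stood at 14.8% in the young and 17.7% in the old. The CpG at 118 bases before the start stood at 14.8% and 18.4%, and the CpG at 70 bases at 26.9% and 32.8%. Just inside the gene, at 7 and 45 bases after the start, levels were 37.8% and 54.1% on the first listed cytosine in young cells, and 43.8% and 60.3% in old cells. Over the first 500 bp of the transcribed part they reached 72.5% and 78.1%. The low stretch overlaps the edge of Myoparr, a non-coding RNA gene named for its place at the Myog promoter (chr1:134288595-134289761), which stood at 38.9% in the young and 43.3% in the old as a whole.

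Old cells had the higher level at each of the 14 listed positions in the 250 bp before the Myog start and at each of the 38 in the first 500 bp. The means differed by 3.58 points before the start and by 5.63 points after it. In the authors' deposited table p was at least 0.282 before the start and at least 0.184 after it, so neither difference passed. The higher level in old was not confined to these parts. From 5 kb to 1 kb upstream of Myog 70 of 76 positions were higher in old, at 63.4% in the young and 67.9% in the old. There p in the authors' deposited table was at least 0.1315. Since neighbouring positions often share a level, these counts of positions are not counts of separate events. The authors' smallest p within 1 kb of the start, 0.0517 in the authors' deposited table, also missed the threshold. A difference of at least 3 points in either direction was present in 9.92% of all 15908 start windows with at least 10 positions.

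Myod1 was low across nearly its whole length, with no position over 26.1% in young cells. Its span, chr7:46376474-46379092, stood at 4.37% in the young and 3.80% in the old over 250 positions. The low stretch begins 618 bases before the start and runs for 2791 bp, at 3.87% and 3.59%. The first 500 bp lay between 2.19% and 4.84% in young and between 2.09% and 4.24% in old cells. Within the 1 kb upstream the level climbs steeply, with positions from 5.13% to 65.5% in young cells, and from 5 kb to 1 kb upstream it is 87.3% in the young and 86.6% in the old. Over the last 1 kb of the span all 70 positions were lower in old, at 8.46% in the young and 7.18% in the old, with a smallest p of 0.320 in the authors' deposited table. Neighbours among these 70 often share a level, so they are not separate events.

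The intervals that hold a pair of well-known Myod1 enhancers had different levels in both ages. The core enhancer, which starts Myod1 expression in the embryo, lies in the interval from 24 to 18 kb upstream. That interval held a low stretch of 670 bp at chr7:46353014-46353683, 22.8 to 23.5 kb upstream, at 7.96% in the young and 9.38% in the old over 24 positions. At its outer end, chr7:46353014 stood at 16.52% and 7.37% with a p of 0.000513 and an FDR of 0.1482 in the authors' deposited table, so it was not called. Of the 77 positions in the interval 24 were under 20%, and its mean was 56.4% and 57.2%. The distal regulatory region, which maintains expression in differentiated muscle, lies in the interval from 6 to 4 kb upstream. No low stretch was found there, and its 42 positions lay between 74.6% and 88.6% in young cells, with means of 85.1% in the young and 83.1% in the old. The non-coding RNA gene Gm45923 (chr7:46371403-46372492) reaches into this interval and stood at 86.0% and 85.1%. Both intervals are wider than the enhancers themselves and were set by distance from the start.

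The Myod1 window held other low stretches away from the gene. Outside genes, 706 bp at chr7:46348579-46349284, from 27.9 to 27.2 kb upstream, stood at 3.45% in the young and 3.05% in the old over 82 positions. A neighbouring stretch at chr7:46350249-46350566 stood at 10.8% and 13.1%. Downstream, the start of the potassium channel gene Kcnc1 held 2370 bp at 4.57% and 4.78%. The step with the lowest level in the window lay there and not in Myod1, at 2.31% in the young and 2.29% in the old.

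**Figure D2:**
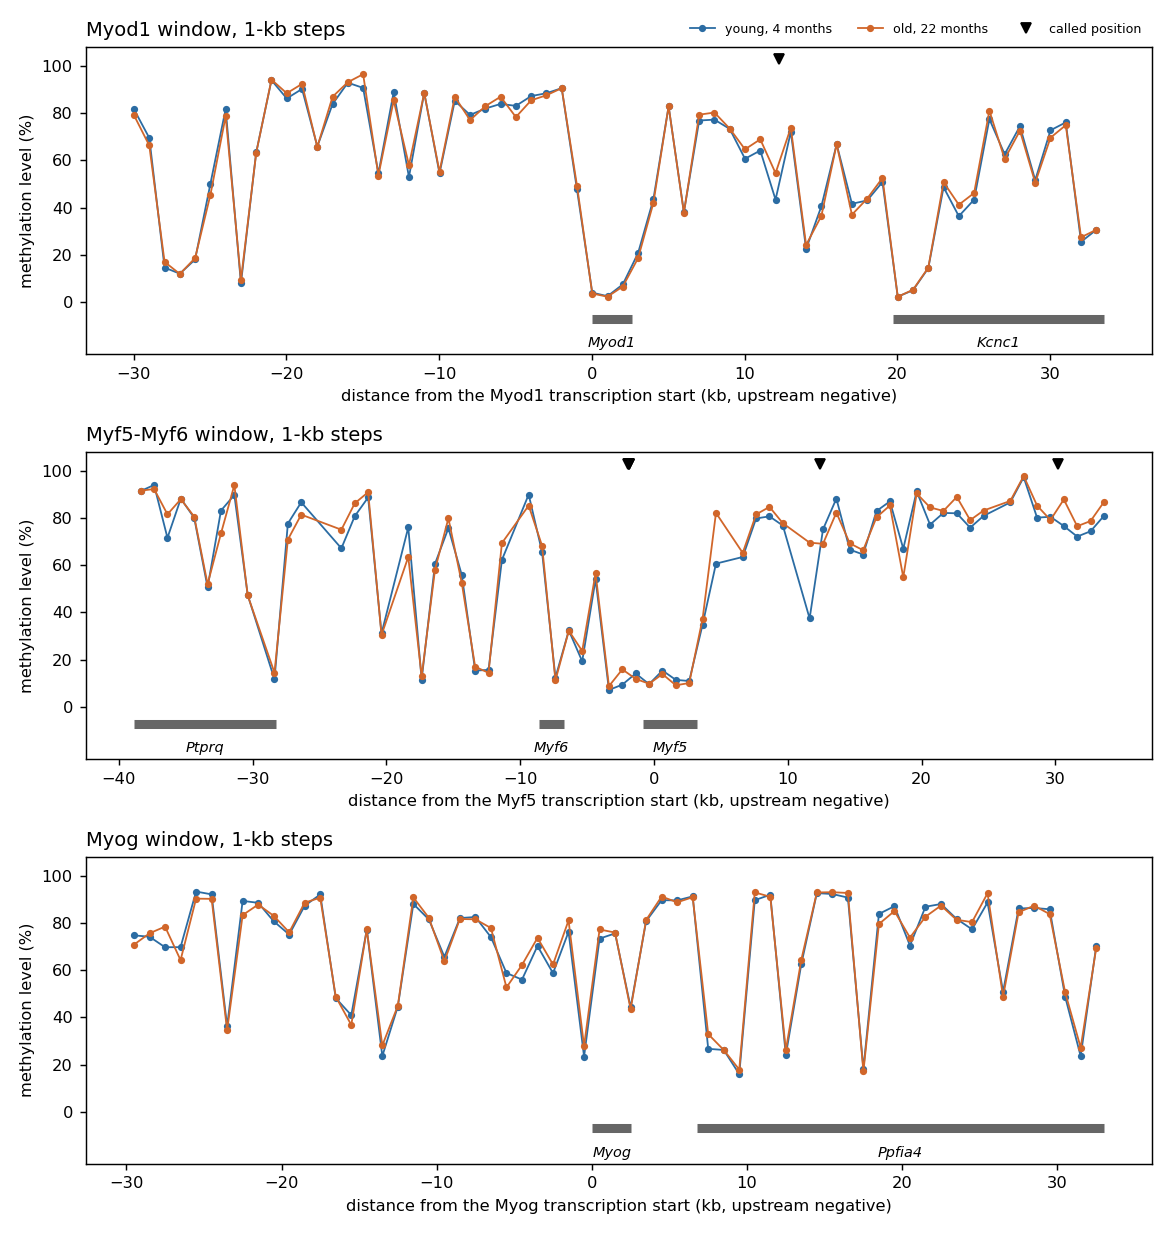
Mean methylation level (percent, vertical axis) per 1-kb step against distance in kb from the start of Myod1, Myf5 and Myog, with young in blue, old in orange, grey bars for protein-coding genes and triangles for positions with an FDR under 0.05. Steps with any number of positions are drawn, and the widest gap between the lines, 37.5% against 69.5% downstream of Myf5, rests on 1 position. The Myog window has no triangle.

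Myf5 lies in the widest low region of the 4 genes. From chr10:107483000 onwards 7 successive 1-kb steps, with any number of positions, were under 20% in both ages, and 0.661% of protein-coding genes have a run of that length or longer. For Myod1 the run was 3 steps, for Myf6 1 and for Myog 0, and the median gene had 1. The main stretch, of 3856 bp at chr10:107483819-107487674, covers the promoter and most of the gene span. It stood at 12.35% in the young and 11.01% in the old over 173 positions. The far end of the gene lies outside it, and the last 1 kb of the span held only 2 listed positions. The gene span, chr10:107482908-107486927, stood at 12.3% and 11.1%. The 3 CpGs of the printed sequence stood between 10.04% and 10.5% in young and between 11.2% and 11.8% in old cells.

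Myf6 was low at its far end and methylated at its start. Its span, chr10:107492848-107494723, is read towards Myf5, and its start lies 8589 bp upstream of the Myf5 start. The 250 bp before the start stood at 85.6% in the young and 81.9% in the old, and the first 500 bp at 58.8% and 63.6%. Between 0.893 and 1.346 kb into the gene the level was 8.62% and 6.57% over 24 positions. Old cells were higher at 26 of 26 positions in the first 500 bp and lower at 24 of 24 in the last 1 kb, but p in the authors' deposited table was at least 0.384 and 0.551. Many of these positions share exactly the same level, so the counts are not counts of separate events.

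The interval between the 2 genes and the DNA ahead of Myf6 held further low stretches. The early epaxial enhancer of Myf5, which starts its expression in the embryonic somite, lies in the interval from 8 to 5 kb upstream of Myf5, which takes in most of Myf6. That interval stood at 18.2% in the young and 19.1% in the old over 61 positions. Its low part outside Myf6, 296 bp at chr10:107491725-107492020, stood at 11.1% and 13.9%. Ahead of Myf6, 1135 bp at chr10:107498829-107499963 inside the non-coding RNA gene Gm36177 stood at 15.4% and 16.6%, at -5.24 to -4.11 kb from the Myf6 start. Enhancers of Myf5 that lie farther upstream are outside the window.

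The difference between ages that passed the authors' test over the most positions lay just upstream of Myf5. At chr10:107488005-107488078, at -1944 to -1871 bp from the Myf5 start and outside any gene, all 8 listed positions share a level of 14.98% in the young and 39.38% in the old. The authors' deposited table calls 4 of them, with FDR values from 0.0205 to 0.0325, and the other four had p-values from 0.00942 to 0.0455 there. The nearest listed positions outside this patch of 74 bp are 331 bp away on the Myf5 side, at 17.0% in the young and 13.3% in the old, and 261 bp away on the Myf6 side, at 9.41% and 10.8%. The patch thus stands inside the low region, with levels under 20% on both sides in both ages.

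**Figure D3:**
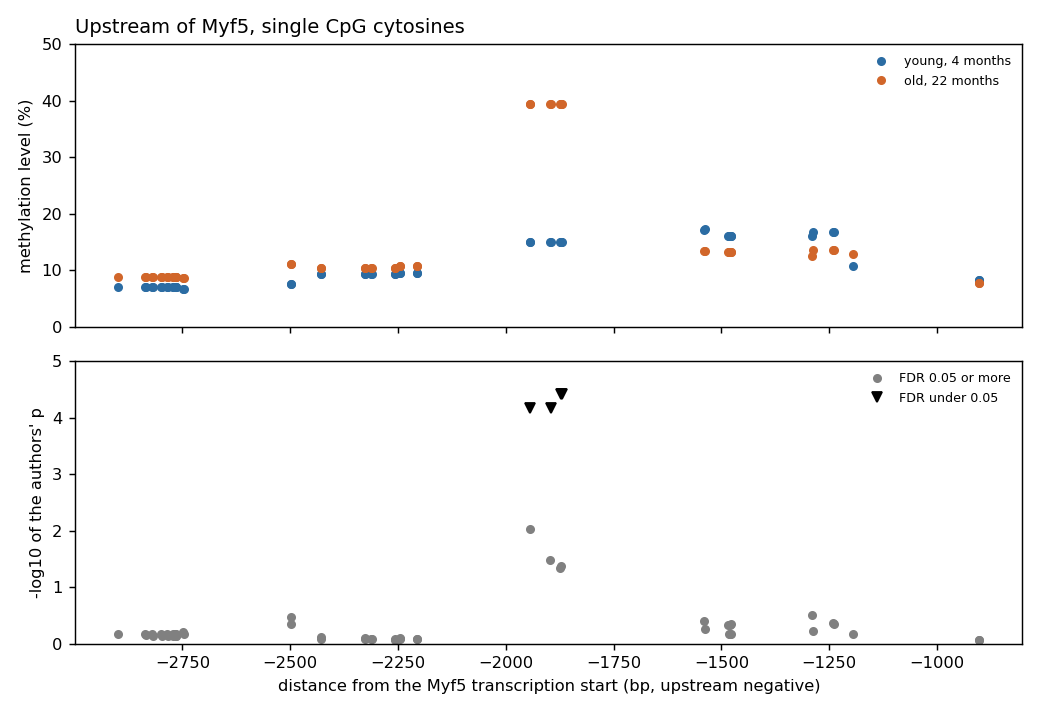
Top, methylation level (percent) of single CpG cytosines upstream of Myf5 in young (blue) and old (orange) cells, and bottom, minus log10 of the authors' p, against distance from the Myf5 start in bp. The patch stands at 14.98% in the young and 39.38% in the old with 4 called positions (triangles, of which a pair overlap), while the nearest positions on both sides are under 20% in both ages.

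In this patch only 1 cytosine of each CpG passed. The called cytosine of each of the 4 CpGs had the most common dispersion value in at least 1 age (0.0438 in young, 0.0434 in old), whereas its partner on the other strand, with the same levels, did not pass. Whether that dispersion value is a measured one is not stated in the sources used here, and its part in the calls was not tested. Of 1231224 1-kb steps in the genome with at least 10 positions, 0.0104% held 4 or more called positions, as this step does. This rule was set after the patch had been seen. The 4 called positions share the same levels, so they are not 4 separate events.

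Over all 3 windows, 7 of 4127 positions were called by the authors' FDR under 0.05, 6 of them higher and 1 lower in old cells. That is 0.170% of the positions, against 0.236% over the genome. The Myf5-Myf6 window held 6 calls (0.688% of its positions), the Myod1 window 1 (0.0557%) and the Myog window 0. Without the patch upstream of Myf5, 3 calls would be left, each a single cytosine. In the Myog window p in the authors' deposited table reached down to 0.00248, at chr1:134262422, where the level was 71.0% in the young and 80.7% in the old, and 14 positions had a p under 0.05. These were 0.958% of the positions around Myog, against 2.98% around Myf5 and Myf6, 0.613% around Myod1 and 2.61% over the genome.

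The 3 other calls lay far from the starts. At chr7:46388702, 12.2 kb downstream of the Myod1 start and outside genes, the level was 48.7% in the young and 81.2% in the old (p 1.3e-19 in the authors' deposited table). At chr10:107455928, 30.2 kb downstream of the Myf5 start, it was 59.8% and 74.9% (p 2.05e-11 in the authors' deposited table). At chr10:107473720, 12.4 kb downstream of the Myf5 start, it was 55.7% and 36.3% (p 5.47e-07 in the authors' deposited table). The partner cytosines of these 3 CpGs had the same levels, with p-values of 0.0272, 0.234 and 0.145 in the authors' deposited table. All 7 called positions had the most common dispersion value in at least 1 age, a value that 19.2% of positions in the windows and 24.0% in the genome had. Of 7 called positions 0 had a called partner, and 1707 of 1908 CpGs with both cytosines listed had equal levels on both strands.

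By whole 1-kb steps 0 of 139 steps with at least 10 positions were called, against 1 of 1231224 (8.12e-05%) over the genome. This test called almost no step anywhere, so the 0 does not set these windows apart. The step p is the median authors' p, doubled, with Benjamini-Hochberg adjustment over 1231224 steps. It asks that most of a step shifts, and 0 of the 139 steps had an unadjusted p under 0.05. With Simes' p, which a few small p-values can pass, 3 of 139 steps were called against 1.32% over the genome. These were the steps that hold the 2 distant calls downstream of Myf5 and the patch upstream of it (adjusted p 1.53e-07, 0.00133 and 0.0491).

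Steps that differed by at least 5 points between the ages made up 7.19% of the 139, against 16.6% in the genome. Steps under 20% in both ages made up 13.7% of the 139, against 3.67% in the genome. The part of such low steps in this comparison was not tested. Old cells had the higher level in 76 of 139 steps (54.7%), against 56.1% of steps in the genome, and the median difference was 0.211 points against 0.438 points. Differences of at least 5 points were present in 1 of 49 steps around Myod1, in 6 of 32 around Myf5 and Myf6 and in 3 of 58 around Myog. The largest step difference was at chr10:107455000-107455999, at 76.6% in the young and 87.8% in the old, and this step holds a called position. Around Myod1 the largest rise in value was at chr7:46364000-46364999 (52.9% and 58.0%), and around Myog at chr1:134297000-134297999 (26.7% and 32.9%), at the far end of Ppfia4, a liprin family gene. The largest drops in value were at chr7:46371000-46371999 (83.1% and 78.3%), in the distal regulatory region interval, at chr10:107473000-107473999 (75.2% and 69.1%) and at chr1:134284000-134284999 (58.7% and 52.6%). The smallest 2 times median p among steps was 0.721 around Myod1, at the step with the low stretch of the core enhancer interval, 0.138 around Myf5 and Myf6 and 0.520 around Myog, each with an adjusted p of 1 (Benjamini-Hochberg). By the mean of both ages, the lowest steps with at least 10 positions lay over the Myf5 start (9.67% and 9.83%) and, around Myog, in Ppfia4 (15.95% and 17.88%).

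**Figure D4:**
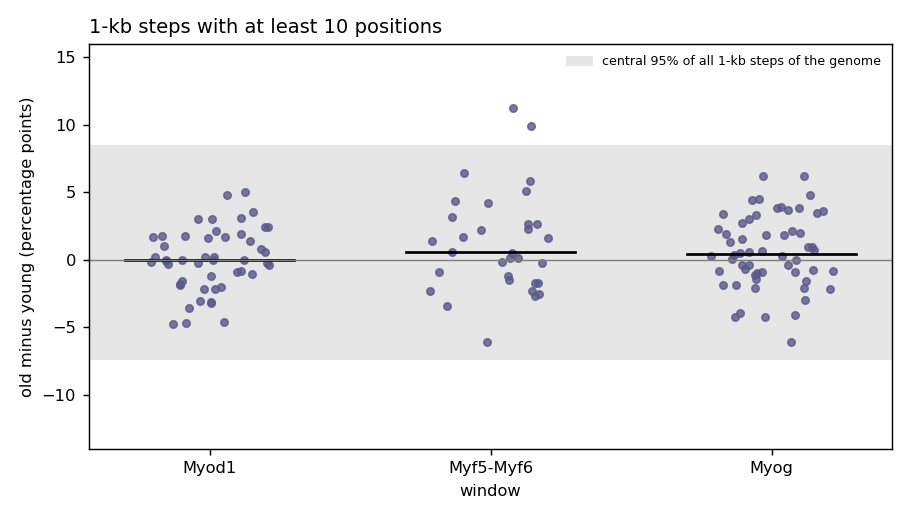
Old minus young level (percentage points, vertical axis) of every 1-kb step with at least 10 positions in the 3 windows, with black bars at the medians and a grey band for the central 95% of all such steps in the genome. Of 139 steps 2 lie outside the band of -7.35 to 8.40 points, both in the Myf5-Myf6 window.

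Mean levels over whole windows differed by less than 1 point between the ages, but median levels differed by more. The Myod1 window stood at 34.9% in the young and 35.0% in the old, the Myf5-Myf6 window at 52.8% and 53.4%, and the Myog window at 64.8% and 65.5%, against 64.1% and 64.6% over the genome. The difference between the median levels of old and young was 4.58 points within 30 kb of Myf5, 3.01 of Myf6, 2.71 of Myog and 0.36 of Myod1, where the means differed by 0.685, 0.365, 0.701 and 0.0571 points. Low stretches, here at least 8 successive positions under 20% on average, numbered 7 around Myod1, 5 around Myf5 and Myf6 and 6 around Myog. Of these 18 stretches 12 had the higher level in old and 6 the lower, with differences from -2.33 to 4.63 points. The 6 around Myog were mostly in Ppfia4, which held 4 of them. The lowest of these, at chr1:134302409-134302930, stood at 5.40% in the young and 7.77% in the old.

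Dispersion medians lay near those of the genome. Median phi was 0.0442 in young and 0.0438 in old cells around Myod1, 0.0438 and 0.0434 around Myf5 and Myf6, and 0.0439 and 0.0435 around Myog, against 0.0438 and 0.0434 over the genome. The genome medians are also the most common values of phi, so nearness to them says little about these windows in particular. Values of at least 0.1 were present at 3.46% of young and 3.34% of old positions around Myod1, at 1.26% and 0.573% around Myf5 and Myf6, and at 3.63% and 3.56% around Myog, against 2.33% and 2.79% over the genome. The highest values around Myod1 were 0.9895 in young cells (chr7:46393230) and 0.9895 in old cells (chr7:46401096). Around Myog they were 0.9895 in young and 0.589 in old cells, at chr1:134307235. The highest young value in the Myf5-Myf6 window was lower, at 0.241, and lay just ahead of the Myf6 start at chr10:107494805. At the Myog promoter the cytosine at 70 bases before the start had a phi of 0.187 in young and 0.0943 in old cells. Its partner on the other strand, with the same levels, had the most common values, 0.0438 and 0.0434.

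Among all genes, Myod1 in young cells lay at percentile 31.2 of level among 15908 start windows, Myf5 at 56.5, Myog at 77.5 and Myf6 at 79.7. These places depended on the width of the window: with 500 bp and 2000 bp on each side Myod1 lay at 50.7 and 14.4, Myf5 at 70.1 and 26.4, Myf6 at 88.9 and 67.8, and Myog at 79.8 and 80.4. In all, 64.1% of start windows were under 20% and 26.0% over 50%. Over gene spans Myod1 lay at percentile 1.14, Myf5 at 3.32, Myf6 at 12.2 and Myog at 76.9 of 20483 genes, so that Myf6, with its low far end, stood nearer to Myod1 and Myf5 there than at the starts. These 4 spans are small, with 250, 150, 64 and 89 positions against a median of 424 over all genes. The part of span size in these places was not tested. The age differences at the starts lay at percentile 41.9 for Myod1, 18.9 for Myf5, 88.7 for Myf6 and 96.3 for Myog.

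**Figure D5:**
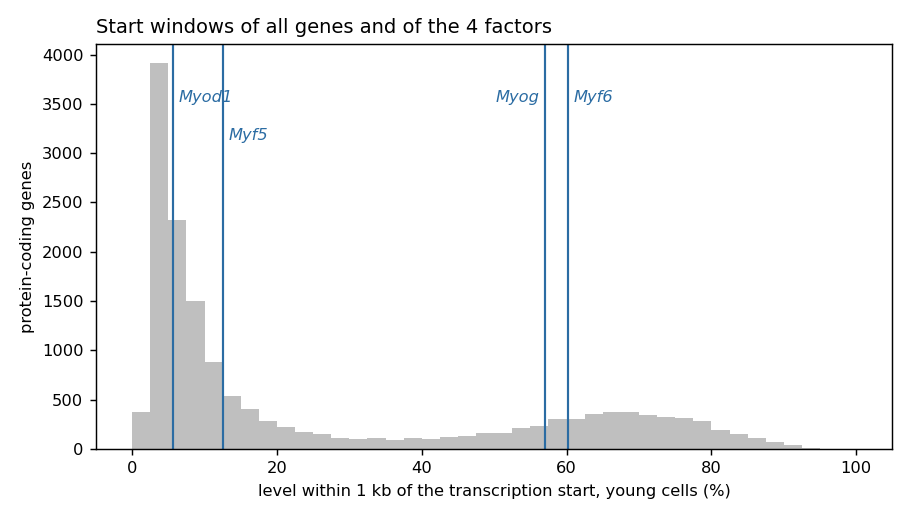
Number of protein-coding genes (vertical axis) by mean level within 1 kb of the start in young cells (percent, bins of 2.5 points), with lines at the 4 factors. Myod1 and Myf5 fall in the large low group, at 5.66% and 12.5%, and Myog and Myf6 in the broad higher group, at 57.1% and 60.1%.

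Genes that act with the factors were measured in the same start windows, from lists whose members had a start in the reference. Of 12 factors that act above them, 5 were measured, with a median of 12.8% in the young and 14.1% in the old. Six4, which binds MEF3 sites, was lowest at 3.20% and 3.18%, Pax7, the master regulator of muscle stem cells, stood at 3.35% and 3.41%, and Tbx1, a regulator of head muscle, was highest at 48.8% and 53.5%. Of 14 dimer partners, cofactors and inhibitors, 13 were measured, and 12 were under 20%, with medians of 3.71% and 3.69%. Among them were the E protein genes Tcf3 (4.16% and 4.02%) and Tcf12 (3.36% and 3.37%), the inhibitor Id3 (3.16% and 3.09%) and the histone deacetylase gene Hdac4 (2.51% and 2.20%). Mef2c, a partner in muscle gene activation, was the exception at 31.5% in the young and 44.8% in the old. Its window held 23 positions, against a median of 132 over all genes. Each gene was read at the first start listed for it, so any other start of Mef2c was not measured. In the start windows of these 2 lists 0 positions were called, and 304 of all 15908 start windows held a called position.

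Among targets of the factors in differentiation, 7 start windows were over 50% and 5 under 20%. Of 26 targets 21 were measured, with medians of 39.7% in the young and 39.2% in the old against 9.69% and 9.68% over all genes. The alkali light chain gene Myl4 was lowest at 4.79% and 4.52%, and the embryonic myosin gene Myh3 highest at 77.1% and 76.1%. Values of 59.1% in the young and 48.5% in the old in Myl1, a fast light chain gene, and of 65.0% and 69.8% in Mybph, of the sarcomere, marked the ends of the range of differences. In this list 10 genes had the higher level in old and 11 the lower, while 45.7% of all start windows were higher in old. Called was 1 position in 1 gene, against 304 of all 15908 start windows with a called position. Of 22 basic helix-loop-helix factors of other tissues 17 were measured with medians of 6.26% and 5.76%, and 14 were under 20%. The neural factors Neurog2 (2.77% and 2.87%) and Olig2 (5.66% and 5.11%) were low, and Lyl1, of blood cells (43.6% and 46.7%), and Figla, of the oocyte (79.1% and 80.6%), high. Counts of members describe these lists and do not set them apart from other genes.

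Profiles over 20 steps of 1 kb around the start, in both ages, were compared with those of 10679 genes by the root mean squared difference. Closest to Myod1 were Olfml3 (11.1 points), Rpl39 (11.7), Prrc2b (11.99), Frmd6 (12.1) and Rpl10a (12.2), against a median gene at 31.3 points. Closest to Myog were Dcpp3 (15.4 points), Myo7a (15.98), Gask1a (16.6), Tmed6 (16.8) and Pglyrp1 (16.8), against a median of 32.6 points. Myod1 and Myog were 35.8 points apart. Myf5 and Myf6 have steps without a listed position and could not be compared.

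Start windows of marker genes were read as a check of the sorted cells, as methylation and not as RNA. Of 12 muscle stem cell genes 10 were measured and 9 of these were under 20% in young cells, from Cxcr4 at 2.99% to Cd34 at 12.6%, with Cdh15 at 24.1%. Myf5 and Myod1 are themselves among these 10. Over all genes 64.1% of start windows were under 20% in young cells, so a low start does not by itself mark a muscle stem cell gene. Of 5 blood genes 3 were measured. These, Ptprc, Itgam and Cd3e, stood at 68.6% to 77.9% in the young and 70.4% to 79.7% in the old. Of 5 endothelial genes 3 were measured. Tie1 stood at 70.4% in young cells, but Kdr (6.00%) and Tek (10.6%) were low. Pdgfra, the only 1 of 4 fibro-adipogenic genes measured, was low as well (6.59%). The fibre genes Acta1, Ckm, Myh1 and Myh4 stood at 21.1% to 49.2% in the young and 21.3% to 52.1% in the old. The share of other cells in the sorts and its part in the levels above was not tested.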

How the data were processed

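Whole-genome bisulfite libraries of 4 young and 4 old mice were grouped by labelled age. The submitters' processing notes name Bismark, Trim Galore and edgeR, and the builds GRCm38 and mm10. Neither the role of each tool nor its version, nor what made and tested the levels, is given in the sources used here. Levels (mu) as deposited are a fraction from 0 to 1 per age, given here in percent, and phi is a dispersion per age from the authors. The authors' p-value and FDR are deposited for each position. Positions in the table count from 0: with 1 added, 644418 of 644418 positions in RefSeq promoter sequences fell on a CpG, and coordinates here count from 1. Levels were averaged over positions with equal weight. Runs of neighbouring positions share a level, read here as smoothing, which would flatten narrow differences.

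Members, lists and rules were chosen with earlier results of these data known. Starts came from the RefSeq promoter table (17274 of 21631 genes), and those of Myod1 and Myf6 from the gene span with their known orientation. Only the first promoter listed for a gene was used, so a gene with other promoters was read at that start alone. Genes, steps and start windows needed at least 10 positions. The named genes were the 4 members, all genes in their windows, the steps with the lowest level, the largest rise, the largest drop and the smallest p per window, the extremes of each list and the 5 closest profiles. Other list members, the low stretches and the rule of 4 called positions were chosen after their values were seen. Planned tests on values per mouse and read counts were not run, since the table holds group values. Python 3.11.15, numpy 2.4.6 and pandas 2.3.3 were used across the whole genome table.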

Additional observations from a re-analysis of the deposited data

How the results depend on the processing

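Of 107 results under alternatives, 91 kept their direction and stayed within a set tolerance (for differences 1 SD over the steps of their window, for percentiles 10). That SD exceeds most of the differences themselves, so these 91 do not show that sizes were kept: between medians the Myf6 window moved from 0.365 to 3.01 points, the Myog window from 0.701 to 2.71 and the Myf6 start from 1.70 to 4.82. Of the 7 called positions, 0 were left once positions with the most common phi were dropped, and 0 CpGs were called on both strands. The 0 called steps became 3 with Simes' p (at 2 times the median, 0 steps had an unadjusted p under 0.05). Small differences changed sign. At the Myod1 start -0.146 points became 0.130 as a mean of steps, and over its window 0.0571 became -0.416 with the genome-wide difference subtracted and -0.142 with 10 kb on each side. At the Myf5 start -0.618 became 1.08 as a median, at the Myf6 start 1.70 became -0.382 as a mean of steps, and over the Myf6 window 0.365 became -0.108 with the genome-wide difference subtracted. Between medians, the Myf5 window moved from 0.685 to 4.58 points and the Myog start from 4.05 to 0.910 points. Percentiles of start levels moved for Myod1 (31.2) to 50.7 with 500 bp and 14.4 with 2000 bp on each side, for Myf5 (56.5) to 70.1 and 26.4, and for Myf6 (79.7) to 67.8 with 2000 bp. The cause of these changes was not tested. No paired analysis was possible because the table holds no values per mouse, and for the same reason no replicate could be left out. Depth per position is unknown.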
